A study of Arabidopsis thaliana with 24 samples.

Results

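The comparison of Arabidopsis root tips of NAC103-OX with root tips of wild type (WT) on control medium rests on 6 of the 24 mRNA libraries of the study, 3 of NAC103-OX and 3 of WT, and covers all 19567 genes that passed a filter on low counts, of 24497 in the deposited table. NAC103-OX is a line that carries a 35S:NAC103-GFP transgene, in which a viral promoter active in most tissues drives NAC103 fused to green fluorescent protein. WT is labelled Col. The other groups used here are nac103-11, labelled a NAC103 mutant by its name, and gun1-101, a mutant of the plastid signalling gene GUN1. Seedlings of all 4 genotypes grew for about 5 days on sucrose-containing medium before the tips, about 0.5 cm long, were taken from control plates or after exposure to spectinomycin at 10 mg/L, which stops protein synthesis on plastid ribosomes. The labels give that exposure as 16 h in 1 place and as 24 h in another, and describe no separate mock transfer for the control groups. They name 1 overexpression line, and they do not say whether replicates came from separate plates, so p-values measure the spread between these libraries only.

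NAC transcription factors are a large plant family with a conserved DNA-binding domain. NAC103 is known as a target of the endoplasmic reticulum (ER) stress factor bZIP60, and it has also been tied to the DNA damage response and to cell-cycle control in root tips. GUN1 is a plastid pentatricopeptide-repeat protein of the signalling from plastids to the nucleus.

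NAC103 (AT5G64060) stood at 17.9, 16.6 and 17.6 CPM (counts relative to the TMM-normalized library size) in NAC103-OX, against 0.733, 0.917 and 0.641 CPM in WT. All 3 NAC103-OX libraries lay far above the WT libraries, and the log2 fold change was 4.48 ± 0.16 (SE, edgeR's quasi-likelihood test, adjusted p = 1.89e-26). Reads of the transgene and of the resident gene were counted together. GUN1 (AT2G31400) had 141, 141 and 145 CPM in NAC103-OX and 150.1, 149.9 and 144 CPM in WT, and it was not called (log2 fold change -0.05 ± 0.046, adjusted p = 0.355).

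Library totals were 14419997 to 15286790 counts in NAC103-OX and 13837483 to 17059084 counts in WT. WT replicate 2 stood apart from its group. Compared with its fellow WT libraries over all genes, it gave a chi-square divided by the degrees of freedom of 8.64 and 8.72, where the other WT pair gave 1.79 and the NAC103-OX pairs 1.85 to 2.97. The batch tag of the labels has 1 value per group, so batch and genotype cannot be told apart.

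The NAC103-OX control libraries also lay close to the spectinomycin libraries. On the first principal component of all 24 libraries, which held 72.6% of the variance, NAC103-OX on control medium spanned -49.9 to -49.3. NAC103-OX on spectinomycin spanned -51.1 to -50.8 and WT on spectinomycin -47.9 to -47.7, whereas WT on control medium spanned 10.2 to 10.9. Over the tested genes, the root mean square difference of the NAC103-OX control group was 0.147 log2 units from NAC103-OX on spectinomycin, 0.245 from WT on spectinomycin and 0.519 from WT on control medium. NAC103-OX on spectinomycin differed from NAC103-OX on control medium at 990 genes (5.06% of those tested), and at 483 to 711 genes when 1 replicate was left out. The same test called 8768 genes (44.8%) in nac103-11 and 2189 genes (11.2%) in gun1-101. Whether the control plates of NAC103-OX differed from those of the other genotypes in anything but genotype was not tested, and the labels are used as given.

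On control medium, 8870 genes (45.3% of those tested) differed between NAC103-OX and WT at an adjusted p of 0.05, the threshold behind every call, rise or fall below. Of these, 4453 (22.8%) rose and 4417 (22.6%) fell. Large changes were mostly falls, with 1015 genes (5.19%) lower by at least 2-fold in NAC103-OX and 387 genes (1.98%) higher by at least 2-fold. The median log2 fold change of all tested genes was 0.0026. The 3 NAC103-OX libraries lay wholly above or wholly below the 3 WT libraries for 9635 genes (49.2%).

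**Figure D1:**
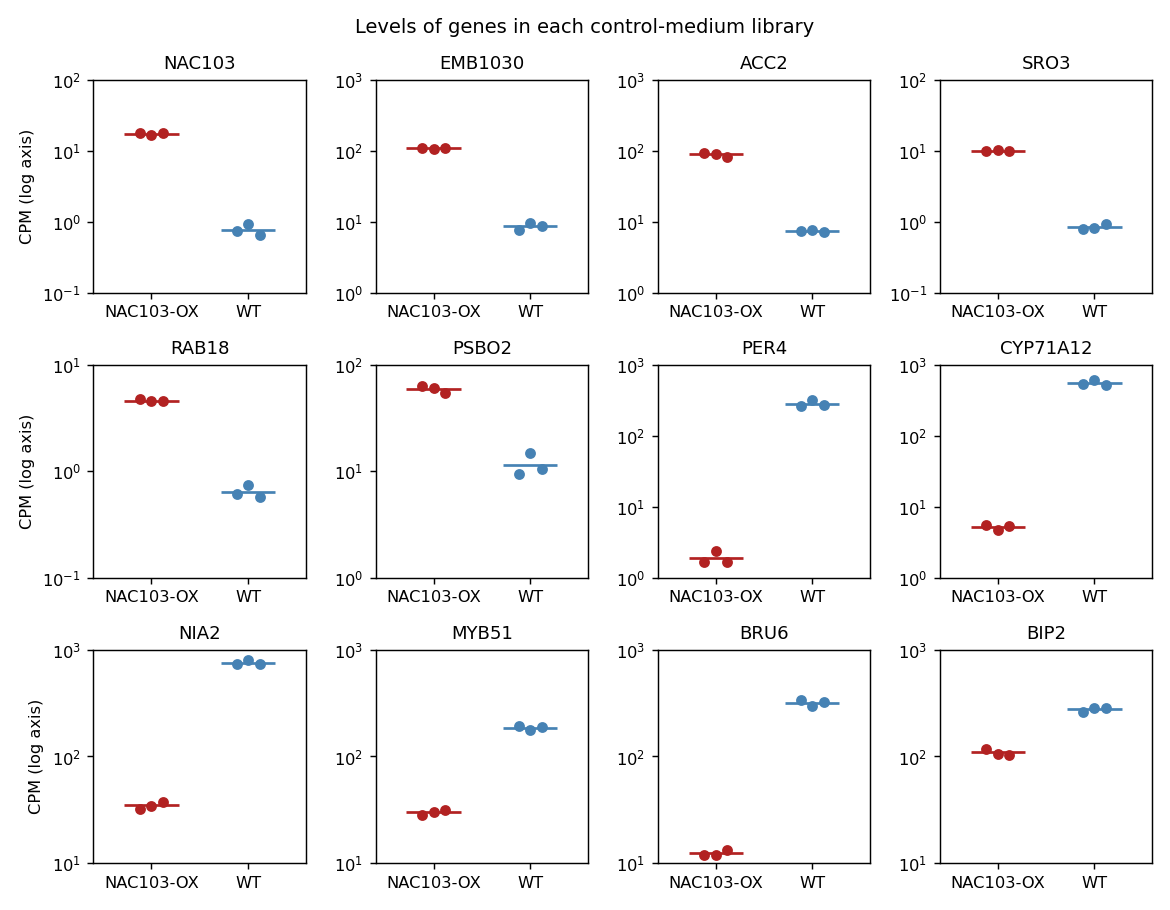
CPM on a log axis for 12 genes in the 3 NAC103-OX and the 3 WT libraries from control medium (points are libraries, bars are means). In every panel the NAC103-OX and WT libraries are separate: NAC103, EMB1030, ACC2, SRO3, RAB18 and PSBO2 are higher in NAC103-OX, and PER4, CYP71A12, NIA2, MYB51, BRU6 and BIP2 are lower. Separation was a condition for naming a gene among the largest rises and falls.

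Beside the transgene, the largest rises held a few genes at high levels. EMB1030 (AT5G22800), an alanyl-tRNA synthetase, had 109, 107 and 111 CPM in NAC103-OX and 7.63, 9.52 and 8.55 CPM in WT (log2 fold change 3.67 ± 0.079, adjusted p = 1.82e-34). ACC2 (AT1G36180), the plastid acetyl-CoA carboxylase of the homomeric type, had 92.2, 90.8 and 82.8 CPM in NAC103-OX, against 7.39, 7.57 and 7.20 CPM in WT (3.58 ± 0.083, adjusted p = 2.44e-33). Both groups were tight, and no NAC103-OX library came near the WT range for either gene. Only genes without overlap, 49.2% of those tested, could be named among the largest rises, so nothing is read from the lack of overlap. ACC1 (AT1G36160), the close copy of ACC2, named here after its values were seen, had 211, 211 and 215 CPM in NAC103-OX and 234, 218 and 227 CPM in WT (-0.09 ± 0.042, adjusted p = 0.0603). It was called lower by DESeq2 (-0.10, adjusted p = 0.0321), with RLE scaling (adjusted p = 0.0369) and without WT replicate 2 (-0.12, adjusted p = 0.0186). At a lower level, SRO3 (AT1G70440), a relative of the stress regulator RCD1, had 9.81, 10.3 and 9.91 CPM in NAC103-OX, against 0.794, 0.803 and 0.926 CPM in WT (3.57 ± 0.19, adjusted p = 7.59e-20).

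Other leading rises stood at lower levels than EMB1030 and ACC2. RLP43 (AT3G28890), a receptor-like protein, had 2.61, 3.43 and 2.14 CPM in NAC103-OX and 0.122, 0.229 and 0.214 CPM in WT (3.80 ± 0.35). MLP168 (AT1G35310), a gene of the major latex protein family, had 101 counts over the NAC103-OX libraries and 2 over the WT libraries, a ratio of 51.8 with a 95% exact (Clopper-Pearson) interval of 14.0 to 433 that covers counting error only. UMAMIT8 (AT4G16620), of a transporter family, rose by 2.52 ± 0.18 on the log2 scale, with 7.45 to 9.63 CPM in NAC103-OX and 1.14 to 1.95 CPM in WT. CSLB04 (AT2G32540), cellulose synthase-like, SCPL43 (AT2G12480), a serine carboxypeptidase-like gene, and SAG29 (AT5G13170), a senescence-associated gene of the SWEET sugar transporters, rose by 2.54 to 2.67, and each was below 0.5 CPM in every WT library. BFN1 (AT1G11190), a nuclease of dying cells and a root cap marker, rose by 1.78 ± 0.15, with 11.9, 9.96 and 9.78 CPM in NAC103-OX against 4.09, 2.52 and 2.57 CPM in WT. It was the only rise among 6 tested root cap markers, of which 1 fell (list median -0.28).

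Genes of abscisic acid and cold rose together: 12 of 18 tested members rose and 0 fell, against 22.8% and 22.6% of all tested genes, with a median log2 fold change of 0.58. Abscisic acid is the hormone of drought and seed dormancy, and many of its targets code for hydrophilic proteins that protect dried cells. RAB18 (AT5G66400), a dehydrin, had 4.78, 4.55 and 4.54 CPM in NAC103-OX and 0.611, 0.745 and 0.570 CPM in WT (2.82 ± 0.23, adjusted p = 4.65e-14). LTI65 (AT5G52300), also known as RD29B, had 3.17, 3.69 and 3.56 CPM in NAC103-OX, against 0.488, 0.459 and 0.998 CPM in WT (2.45 ± 0.27, adjusted p = 1.98e-10). Its neighbour LTI78 (AT5G52310) had 109, 106 and 100.4 CPM in NAC103-OX and 23.6, 24.1 and 21.9 CPM in WT (2.18 ± 0.067, adjusted p = 8.05e-29). No library of either group crossed into the range of the other for these 3 genes, as for 49.2% of all tested genes. RAB18 and LTI65 were named as largest rises under a rule that required this, so nothing is read from it. The signalling genes moved less: RD26 (AT4G27410), a NAC factor, rose by 1.35 ± 0.051, and ABF3 (AT4G34000), a bZIP factor of the hormone response, by 0.78 ± 0.056. TSPO (AT2G47770), a membrane protein known to be induced by abscisic acid and not a member of the list, had 3.54, 3.17 and 3.37 CPM in NAC103-OX and 0.244, 0.516 and 0.499 CPM in WT (2.98 ± 0.27).

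The 250 bases before the annotated start of LTI65 are shown because this gene is among the 15 largest rises and the core ACGTG of the element bound by abscisic acid bZIP factors recurs in them; capitals mark each ACGTG on either strand. The sequence was read from the RefSeq genome TAIR10.1 on the plus strand, chr5:21236771-21237020, 5′ to 3′.
LTI65: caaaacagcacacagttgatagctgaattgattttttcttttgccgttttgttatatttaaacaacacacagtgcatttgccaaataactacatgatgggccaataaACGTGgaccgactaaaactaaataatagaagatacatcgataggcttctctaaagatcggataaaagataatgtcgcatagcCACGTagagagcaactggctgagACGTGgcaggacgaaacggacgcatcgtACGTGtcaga
The core matched 4 times in this window. A match was found in 10 of the 18 windows of the list, in 27.7% of those of genes that rose by at least 2-fold, in 28.4% of those of genes that fell by at least 2-fold and in 23.9% of the 19440 windows read. The core was also present in lists that mostly fell, in 18 of 33 windows of the ER stress list and 10 of 21 of the camalexin and indole list. The 4 matches do not overlap, and a match is a description, not a binding site.

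Nuclear genes of photosynthesis were higher in these root tips of NAC103-OX than in those of WT. In the list, 34 of 49 tested members rose and 0 fell (median 0.59). Against gun1-101 on control medium, 9 were called higher in NAC103-OX and 17 lower (median -0.02), where 28.2% of all tested genes were lower. Against nac103-11, 37 were higher and 2 lower (median 0.71), where 29.1% of all were higher. Both use the same NAC103-OX libraries, so their values are given side by side only. PSBO2 (AT3G50820), an oxygen-evolving subunit of photosystem II, had 63.6, 60.8 and 54.6 CPM in NAC103-OX and 9.34, 14.7 and 10.5 CPM in WT (2.36 ± 0.089, adjusted p = 8.98e-24). PSBO1 (AT5G66570), its paralog, had 139, 131 and 138 CPM in NAC103-OX, against 51.0, 69.4 and 50.2 CPM in WT (1.25 ± 0.074), and PSAK (AT1G30380), of photosystem I, rose by 1.10 ± 0.084. WT replicate 2 was the highest WT library for all 3. The summed level of the whole list was 2031, 1956 and 1984 CPM in NAC103-OX and 1050, 1682 and 1043 CPM in WT, so that WT replicate 2 lay between the groups. Without that library 42 members rose (median 0.85). The part of green tissue in this difference was not tested, and in bulk tips a change in the make-up of cells cannot be told apart from a change of RNA per cell.

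Around this list, tetrapyrrole synthesis was split. Of 25 tested members 12 rose and 4 fell. GUN5 (AT5G13630), a subunit of the chelatase at the entry to chlorophyll, had 56.9, 54.5 and 55.3 CPM in NAC103-OX and 32.1, 33.9 and 30.7 CPM in WT (0.78 ± 0.056, adjusted p = 8.36e-16). HEMA2 (AT1G09940), the glutamyl-tRNA reductase of non-green tissue, fell to 20.6, 19.9 and 19.7 CPM in NAC103-OX, against 42.5, 48.3 and 36.6 CPM in WT (-1.09 ± 0.076). FC1 (AT5G26030), a ferrochelatase of the heme branch, fell as well (-0.81 ± 0.052). Of 13 tested genes of plastid gene expression and signalling 8 rose and 1 fell, all by less than 0.5 log2 units. The faller was NAC082 (AT5G09330), a NAC factor known from ribosomal stress (-0.35 ± 0.055).

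Genes of indolic defence compounds fell. Brassicaceae make indolic compounds from tryptophan, among them camalexin and the 4-methoxylated indole glucosinolates, when they sense microbes. Of 21 tested genes for these routes 20 fell and 0 rose (median -1.82). CYP71A12 (AT2G30750), a P450 of indole carbonyl nitrile and camalexin synthesis, had 5.59, 4.68 and 5.38 CPM in NAC103-OX and 538, 604 and 523 CPM in WT (-6.73 ± 0.074, adjusted p = 2.18e-45). CYP81F2 (AT5G57220), the P450 that hydroxylates indole glucosinolates, had 4.97, 4.48 and 4.99 CPM in NAC103-OX, against 386, 462 and 363 CPM in WT (-6.39 ± 0.089, adjusted p = 2.22e-34). IGMT2 (AT1G21120), a methyltransferase of the same branch, had 10.9, 8.97 and 10.2 CPM in NAC103-OX and 344, 366 and 358 CPM in WT (-5.15 ± 0.068). For each of these genes the levels in WT were at least 30 times those in NAC103-OX, and the libraries within a group were close. CYP71A18 (AT1G11610) had 3 counts over the NAC103-OX libraries and 658 over the WT libraries, a ratio of 214 (interval 72.9 to 1040). CYP71A12 has close copies, so reads may be shared among them.

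The promoters of CYP71A12 and CYP81F2 are shown because TTGAC, the core of the W-box that WRKY factors bind, was frequent before genes that fell. These 2 were chosen after their values were seen. Both windows are the 250 bases before the annotated start in TAIR10.1, written 5′ to 3′ along the gene, with TTGAC on either strand in capitals (GTCAA is its reverse complement). CYP71A12 lies on the minus strand at chr2:13101372-13101621 and CYP81F2 on the plus strand at chr5:23187590-23187839.
CYP71A12: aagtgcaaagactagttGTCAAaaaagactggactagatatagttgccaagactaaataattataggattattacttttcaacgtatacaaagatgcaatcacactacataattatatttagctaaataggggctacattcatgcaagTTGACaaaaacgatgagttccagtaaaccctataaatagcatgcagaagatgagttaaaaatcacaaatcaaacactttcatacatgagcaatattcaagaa
CYP81F2: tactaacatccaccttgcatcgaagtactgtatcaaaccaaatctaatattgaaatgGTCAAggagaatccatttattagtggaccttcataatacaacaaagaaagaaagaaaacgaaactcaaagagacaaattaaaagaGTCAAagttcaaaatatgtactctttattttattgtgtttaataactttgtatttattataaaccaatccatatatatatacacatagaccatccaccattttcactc
Each window holds 2 matches. The core was present in 664 of 1012 windows (65.6%) of genes that fell by at least 2-fold, in 46.3% of those of genes that rose by at least 2-fold and in 45.8% of all 19440. The UPRE-III letters TCATCG, an ER stress element tied to NAC103, were in 8.38% of windows of the risers, 4.74% of those of the fallers and 6.46% of all. The motif of the DNA damage factor SOG1 was in 11.0% of windows of the risers, 8.79% of those of the fallers and 9.03% of all.

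Immune signalling genes fell with them. Among calcium, touch and immunity genes 17 of 19 fell and 0 rose (median -1.43). TCH3 (AT2G41100), a calmodulin-like protein of touch, had 21.1, 16.1 and 20.0 CPM in NAC103-OX and 164, 169 and 169.5 CPM in WT (-3.14 ± 0.062, adjusted p = 7.35e-36). FRK1 (AT2G19190), the flagellin-induced receptor kinase used as an immunity marker, had 5.09, 4.62 and 5.83 CPM in NAC103-OX, against 58.8, 47.0 and 54.2 CPM in WT (-3.36 ± 0.089). PROPEP3 (AT5G64905), the precursor of a danger peptide, had 0.559, 0.132 and 0.518 CPM in NAC103-OX and 23.6, 29.8 and 22.9 CPM in WT (-5.94 ± 0.27, adjusted p = 1.53e-14). The receptor kinase gene RK3 (AT4G21380) fell by 5.40 on the log2 scale. Other leading falls were close to absent in NAC103-OX. CCR4 (AT5G47850), a CRINKLY4-related kinase, had 1 count against 153 in WT (ratio 149, interval 26.4 to 5935). GLR2.8 (AT2G29110), a glutamate receptor-like channel, had 3 against 223 (ratio 72.5, interval 24.5 to 354).

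Stress transcription factors followed the same direction, with 24 of 29 tested members lower and 1 higher (median -1.35). MYB15 (AT3G23250) had 1.80, 1.52 and 1.04 CPM in NAC103-OX and 56.4, 65.7 and 63.3 CPM in WT (-5.40 ± 0.10, adjusted p = 3.33e-36). MYB51 (AT1G18570), an activator of indole glucosinolate genes, had 28.4, 30.4 and 31.5 CPM in NAC103-OX, against 193, 177 and 191 CPM in WT (-2.64 ± 0.051). The ethylene-response factor ERF6 (AT4G17490) fell by 3.11 ± 0.071. WRKY41 (AT4G11070), named as a leading fall, had 0 counts over the NAC103-OX libraries and 50 over those of WT, which is at least 16.3-fold lower when 3 counts over the group are taken as the floor. Another leading fall, ABO3 (AT1G66600), called so for its abscisic acid phenotype, had 2 counts against 141 (ratio 68.8, interval 18.7 to 574).

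Class III peroxidases, which use hydrogen peroxide in the cell wall, were split between a few very large falls and little change. PER4 (AT1G14540) had 1.68, 2.37 and 1.68 CPM in NAC103-OX and 263, 320.1 and 272 CPM in WT (-7.22 ± 0.10, adjusted p = 5.15e-36). AT5G39580, another peroxidase, had 32.0, 30.0 and 30.4 CPM in NAC103-OX, against 1249, 1250.3 and 1296 CPM in WT (-5.36 ± 0.053). In all, 6 of 15 fell and 2 rose, and 10 fell without WT replicate 2. Of 23 glutathione transferases and detoxification genes 18 fell and 3 rose. In nac103-11 against the same WT libraries on control medium 12 fell and 5 rose (median -0.29, against -0.78 in NAC103-OX). There 3940 of the 19567 tested genes fell. GSTU12 (AT1G69920) had 0.683, 0.528 and 0.713 CPM in NAC103-OX and 61.8, 45.4 and 54.8 CPM in WT (-6.37 ± 0.15). GSTF7 (AT1G02920), far more abundant and close in sequence to GSTF6, fell by 3.47 ± 0.054.

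Phenylpropanoid and coumarin genes showed 9 falls and 2 rises among 19 tested members. AT3G13610, an oxoglutarate-dependent oxygenase of the coumarin group, had 7.39, 7.19 and 6.80 CPM in NAC103-OX and 636, 579 and 618 CPM in WT (-6.42 ± 0.066, adjusted p = 1.80e-46). The entry enzymes PAL1 (AT2G37040) and 4CL1 (AT1G51680) fell far less, by 1.53 and 1.55. PXMT1 (AT1G66700), a methyltransferase outside the list, fell by 5.86 ± 0.11.

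Aliphatic glucosinolate genes, which build methionine-derived defence compounds, were lower in 10 of 11 tested cases (median -1.71). The fall was not particular to NAC103-OX. In nac103-11 against WT on control medium, 10 of the 11 fell and 1 rose (median -1.94), where 3940 of the 19567 tested genes fell. That comparison uses the same WT libraries, so its values are given side by side only. SOT17 (AT1G18590), a sulfotransferase, had 6.40, 7.65 and 6.28 CPM in NAC103-OX and 31.7, 29.7 and 31.5 CPM in WT (-2.19 ± 0.092). MAM1 (AT5G23010), of methionine chain elongation, fell by 1.71 ± 0.11, and IMS2 (AT5G23020), its neighbour, by 1.16 ± 0.061.

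Nitrate reduction was among the most affected routes. NIA1 (AT1G77760), a nitrate reductase, had 0.186, 0.396 and 0.583 CPM in NAC103-OX and 68.3, 48.7 and 67.7 CPM in WT (-7.29 ± 0.23, adjusted p = 4.78e-18). NIA2 (AT1G37130), the major nitrate reductase, had 32.3, 34.5 and 37.6 CPM in NAC103-OX, against 731, 809 and 732 CPM in WT (-4.44 ± 0.053, adjusted p = 3.61e-44). The next enzyme, nitrite reductase NIR1 (AT2G15620), fell by 1.56 ± 0.059. The high-affinity transporter genes went the other way at low levels. NRT2.6 (AT3G45060) had 5.71, 5.94 and 7.32 CPM in NAC103-OX and 0.733, 0.401 and 0.998 CPM in WT (3.18 ± 0.23, adjusted p = 1.07e-15), and NRT2:1 (AT1G08090) stood near 1 CPM in NAC103-OX (2.93 ± 0.53). The sulfate transporter SULTR1;2 (AT1G78000) fell to 192, 212 and 204 CPM in NAC103-OX, against 859.6, 858 and 835 CPM in WT (-2.07 ± 0.043). Over the nitrate and sulfate list 9 of 18 fell and 7 rose. In nac103-11 against the same WT libraries on control medium 12 fell and 3 rose, where 3940 of the 19567 tested genes fell. ASPGB1 (AT3G16150), an asparaginase, which releases ammonium from asparagine, had 3.23, 2.97 and 2.66 CPM in NAC103-OX and 155, 133 and 160.4 CPM in WT (-5.65 ± 0.092, adjusted p = 2.60e-37). PUP8 (AT4G18195), of the purine permeases, had 1 count in NAC103-OX and 111 in WT (ratio 108, interval 19.0 to 4316).

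Genes of the ER unfolded-protein response, the pathway with which NAC103 is best known, were mostly lower in the overexpression line: 22 of 33 tested members fell and 3 rose (median -0.52). BIP2 (AT5G42020), an ER Hsp70 chaperone with a near-identical copy in BIP1, had 118, 106 and 103 CPM in NAC103-OX and 264, 282 and 284 CPM in WT (-1.34 ± 0.048, adjusted p = 2.66e-26). CNX1 (AT5G61790), calnexin, had 115, 109 and 111 CPM in NAC103-OX, against 251, 290.2 and 266 CPM in WT (-1.27 ± 0.045). The calreticulin gene CRT1a (AT1G56340) fell by 1.01 ± 0.043.

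Markers of mitochondrial dysfunction fell too, in 12 of 16 cases with 1 rise. They also fell in nac103-11 against the same WT libraries on control medium, with 9 falls and 2 rises (median -0.37). There 3940 of the 19567 tested genes fell. CYP81D8 (AT4G37370), a P450 of the general stress response, had 3.11, 2.51 and 3.43 CPM in NAC103-OX and 71.8, 52.9 and 70.5 CPM in WT (-4.42 ± 0.11). DIC2 (AT4G24570), a mitochondrial dicarboxylate carrier, fell by 3.70 ± 0.13 and NDB2 (AT4G05020), an external NADH dehydrogenase, by 1.48 ± 0.072. All 11 hypoxia genes fell (median -1.42), among them the class 1 hemoglobin HB1 (AT2G16060), with 9.88, 7.91 and 8.49 CPM in NAC103-OX and 41.5, 31.6 and 42.9 CPM in WT (-2.13 ± 0.10), and the ethylene-response factor gene ERF73 (AT1G72360, -1.80 ± 0.068). Without WT replicate 2, 10 of the 11 fell. Cytosolic heat shock genes moved little: 4 of 10 fell, by at most 0.62 (HSP90.1, AT5G52640), and 1 rose.

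Of the hormone lists other than abscisic acid, auxin and ethylene were mostly lower. Jasmonate and salicylate genes had more falls than rises, and type-A cytokinin response regulators more rises than falls. Of all tested genes 22.8% rose and 22.6% fell. In auxin genes 15 of 22 fell and 1 rose (median -0.60). The fall was not particular to NAC103-OX: in nac103-11 against the same WT libraries 13 fell and 2 rose (median -0.23). In that comparison 3940 of the 19567 tested genes fell. BRU6 (AT4G37390), a GH3 enzyme that conjugates auxin to amino acids, had 11.9, 11.9 and 13.1 CPM in NAC103-OX and 336, 295 and 326 CPM in WT (-4.70 ± 0.066, adjusted p = 1.75e-41), and the related GH3.3 (AT2G23170) fell by 3.36 ± 0.13. The efflux carrier EIR1 (AT5G57090), known as PIN2, fell by 0.62 ± 0.055. In ethylene genes 7 of 12 fell, among them the synthase ACS6 (AT4G11280, -2.27 ± 0.078), and 1 rose (2 without WT replicate 2). In jasmonate and salicylate genes 6 of 15 fell and 3 rose. JAZ1 (AT1G19180), a jasmonate repressor that the hormone itself induces, had 29.1, 35.7 and 34.5 CPM in NAC103-OX and 138, 147 and 148 CPM in WT (-2.13 ± 0.058). Type-A cytokinin response regulators had 4 rises and 1 fall among 8, with 2 falls without WT replicate 2.

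In the triterpene clusters, which make root-specific thalianol and marneral compounds, 5 of 7 rose and 0 fell. THAS1 (AT5G48010), thalianol synthase, had 64.0, 65.5 and 70.4 CPM in NAC103-OX and 29.1, 34.6 and 29.1 CPM in WT (1.10 ± 0.060, adjusted p = 8.99e-20). MRN1 (AT5G42600), marneral synthase, rose by 1.11 ± 0.087. Of 16 clock genes 7 rose and 0 fell, with ELF4 (AT2G40080), an evening gene, at 244, 226 and 212 CPM in NAC103-OX and 118, 130.3 and 118 CPM in WT (0.90 ± 0.053). The labels give no hour of harvest. Phosphate and iron genes were mixed. In phosphate starvation genes 4 of 11 rose and 2 fell (median 0.09, and -0.03 without WT replicate 2), with the acid phosphatase PAP17 (AT3G17790) up by 1.00 ± 0.050, and in iron deficiency genes 4 of 20 rose and 7 fell (median 0.01), with the citrate transporter FRD3 (AT3G08040) up by 0.77 ± 0.061.

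**Figure D2:**
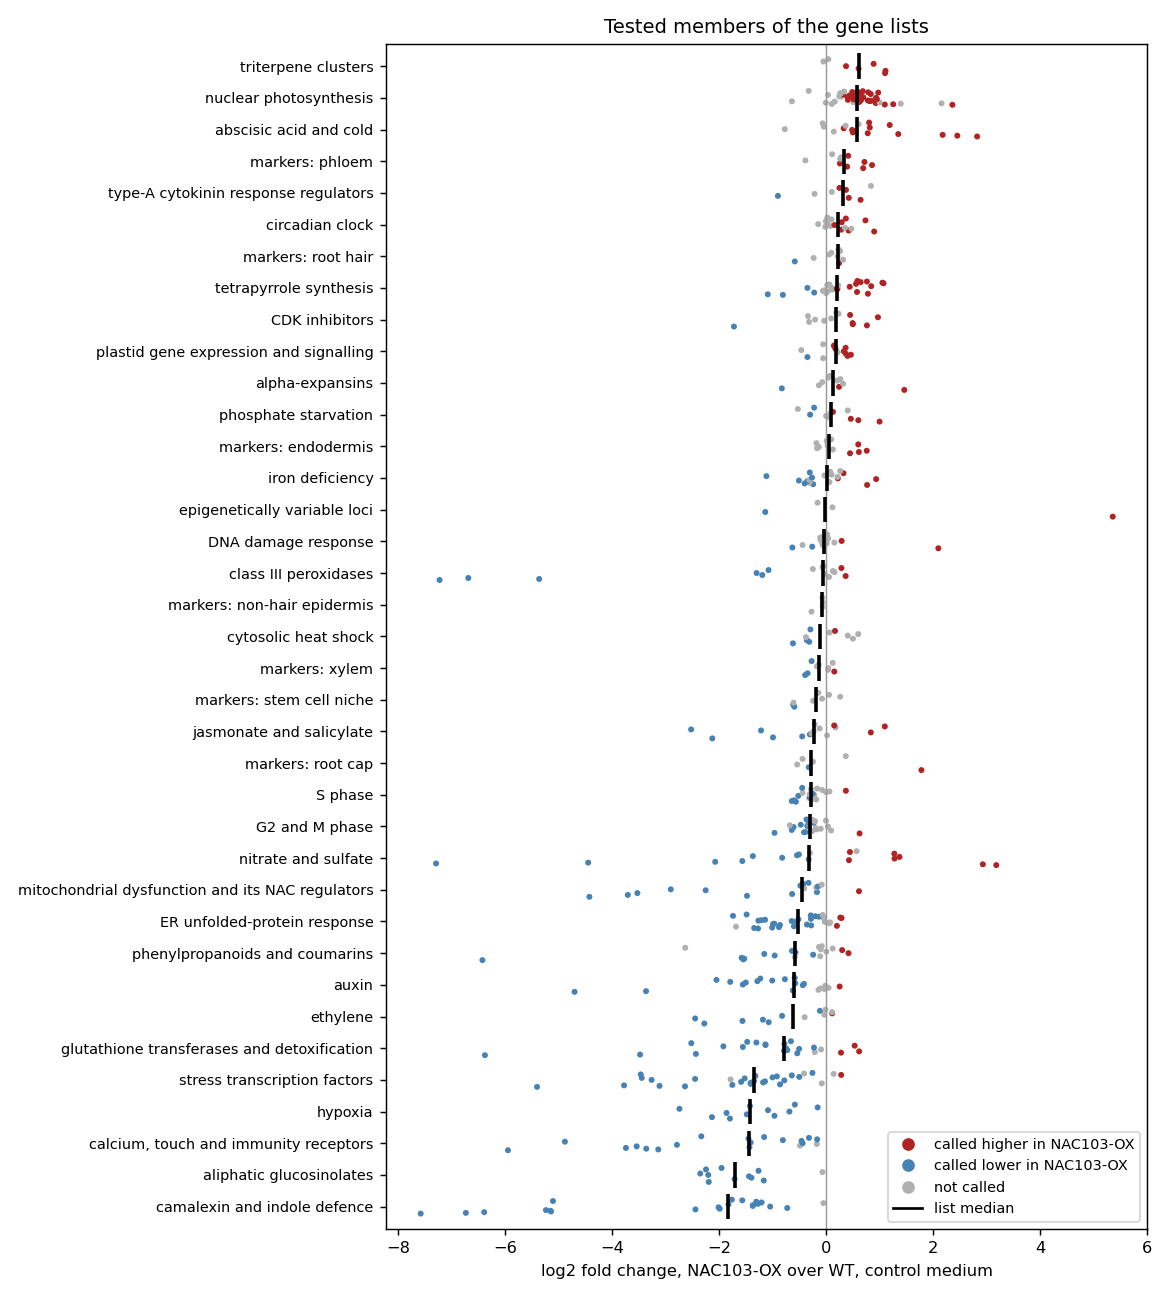
Fitted log2 fold change, NAC103-OX over WT on control medium, of each tested member of 37 gene lists, 7 of them cell type markers. Each point is a gene, colored by its call, and black bars are list medians. The camalexin and indole list lies lowest (median -1.82), and triterpenes, photosynthesis, and abscisic acid and cold lie highest (0.61, 0.59 and 0.58). The far-right point of the epigenetic list is FWA, which had 0 counts in WT.

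DNA damage and the cell cycle are the other processes tied to NAC103 in root tips. Of 18 DNA damage genes 2 rose, 2 fell and 14 were not called (median -0.04). NAC044 (AT3G01600), a NAC factor downstream of SOG1, had 3.29, 2.64 and 2.46 CPM in NAC103-OX and 0.733, 0.344 and 0.926 CPM in WT (2.10 ± 0.29, adjusted p = 5.48e-08). RAD54 (AT3G19210), a recombination gene, fell by 0.63 ± 0.12. Of 13 CDK inhibitors 5 rose, or 38.5% against 22.8% of all tested genes, and 1 fell (2 without WT replicate 2). Their log2 fold changes ranged from -1.72 to 0.97 (median 0.19). SIM (AT5G04470), which promotes endoreduplication, had 122, 131 and 147 CPM in NAC103-OX and 93.4, 81.2 and 109 CPM in WT (0.50 ± 0.097), and ICK1 (AT2G23430) rose by 0.76 ± 0.17. S-phase genes had 8 falls and 1 rise among 20 (median -0.29), and G2 and M-phase genes 11 falls and 1 rise among 25 (median -0.31). Thus 40.0% and 44.0% fell, against 22.6% of all tested genes. Without WT replicate 2, S-phase genes had 6 falls, and G2 and M-phase genes still 11. Both lists were also lower in nac103-11 than in WT on control medium. S-phase genes had 12 falls and 0 rises there (median -0.41), and G2 and M-phase genes 11 falls and 1 rise (median -0.30). In that comparison 3940 of the 19567 tested genes fell. It uses the same WT libraries, so its values are given side by side only. CYCB1;1 (AT4G37490), a mitotic cyclin, had 1.49, 1.12 and 1.49 CPM in NAC103-OX, against 2.81, 2.35 and 2.92 CPM in WT (-0.96 ± 0.22), whereas the kinase AUR2 (AT2G25880) rose by 0.63 ± 0.10.

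Among cell type markers the phloem list had the most calls. Of all tested genes 22.8% rose and 22.6% fell. Phloem markers rose in 6 of 10 cases with 0 falls (median 0.34), and their summed level was 591, 592 and 574 CPM in NAC103-OX and 373, 459 and 375 CPM in WT. SEOa (AT3G01670), a sieve element protein, rose by 0.86 ± 0.097, and the phloem lectin PP2-A1 (AT4G19840) by 0.69 ± 0.054. In nac103-11 against WT on control medium, 5 of the 10 phloem markers rose too and 0 fell (median 0.25). There 4541 of the 19567 tested genes rose, and the WT libraries are the same, so these values are given side by side only. Stem cell niche markers had 0 rises and 2 falls among 8 tested, JKD (AT5G03150, -0.59 ± 0.062) and AIL6 (AT5G10510, -0.61 ± 0.079), with summed levels of 124 to 138 CPM in NAC103-OX and 160.2 to 173 CPM in WT. Those falls made 25.0% of the list, near the share of all tested genes. Endodermis had 4 rises among 12, root cap 1 rise (BFN1, 1.78) and 1 fall among 6, root hair 1 rise and 1 fall among 9, xylem 1 rise and 3 falls among 9, and non-hair epidermis no call among 4. Nothing about these cell types is read from such small counts. Without WT replicate 2, endodermis gave 4 rises and 3 falls, root hair 0 rises and 2 falls, root cap 1 rise and 2 falls, and the stem cell niche 1 rise and 3 falls. No marker of any list was without counts in these libraries. Their part in the other differences was not tested.

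The response of nac103-11 to spectinomycin shares no library with the comparison of NAC103-OX and WT on control medium, and it was set beside it after the values were seen. Of the 1015 genes at least 2-fold lower in NAC103-OX, 854 were called lower on spectinomycin than on control medium in nac103-11 and 15 higher, where 23.4% of all tested genes were called lower. Of the 387 genes at least 2-fold higher, 195 were called higher and 25 lower in nac103-11, where 21.4% of all were called higher. Across the 19567 genes the log2 fold changes of the comparisons had a Pearson r of 0.60, as a description over genes that are not independent. The response of gun1-101 gave an r of 0.24.

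The leading falls and the leading rises differed in this respect. All of the 15 largest falls were also lower on spectinomycin in nac103-11. CYP71A12 averaged 138 ± 5.50 CPM on spectinomycin and 613 ± 19.6 CPM on control medium in nac103-11 (SD, n = 3 each), and ASPGB1 65.2 ± 3.76 and 392 ± 6.98 CPM. Of the 15 largest rises, 2 were higher on spectinomycin in nac103-11 (SRO3 and CSLB04), 3 were lower (NAC103, NRT2.6 and NRT2:1) and 10 were not called. EMB1030 averaged 8.18 ± 0.474 CPM on spectinomycin and 8.55 ± 0.993 CPM on control medium in nac103-11. Lists divided likewise: hypoxia genes fell in 11 of 11 cases in nac103-11 on spectinomycin and photosynthesis genes rose in 35 of 49, whereas aliphatic glucosinolate genes, lower in NAC103-OX, rose there in 6 of 11 and fell in 1.

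**Figure D3:**
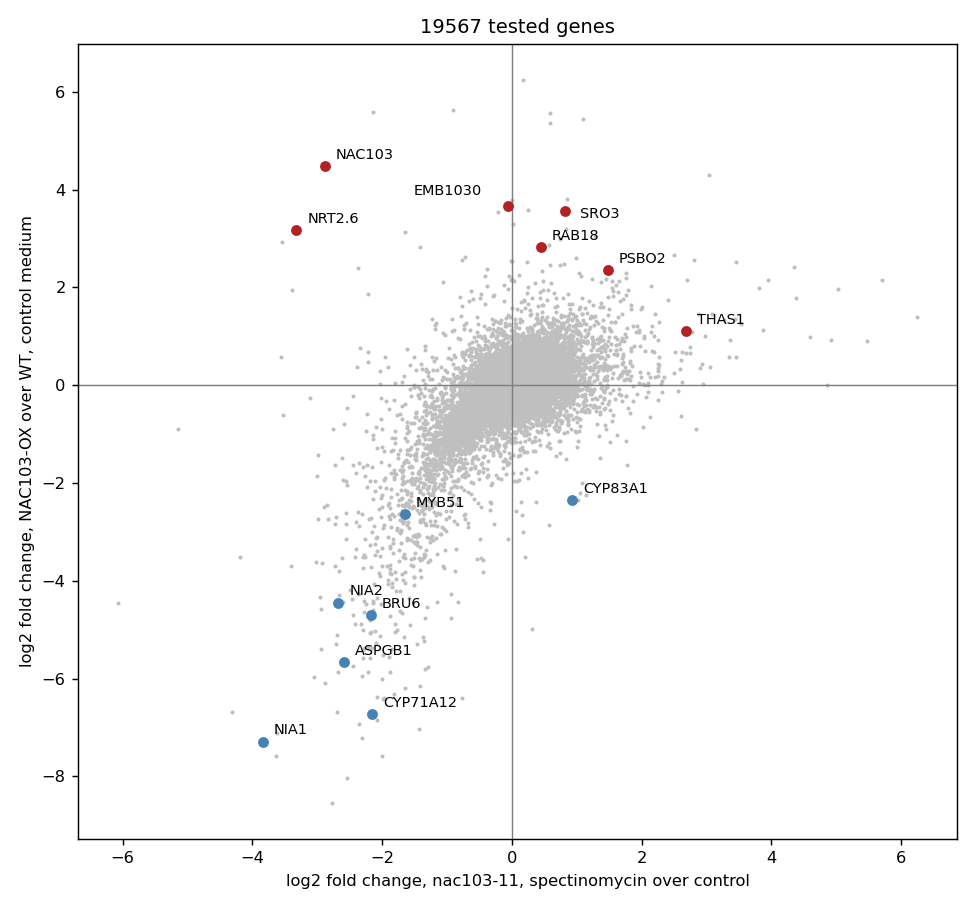
Log2 fold change of NAC103-OX over WT on control medium (y axis) against that of nac103-11 on spectinomycin over control (x axis) for 19567 genes (gray points, named genes colored). CYP71A12, ASPGB1, NIA1 and NIA2 lie low on both axes, and EMB1030, SRO3 and NAC103 are high on the y axis without a large rise on the x axis.

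On spectinomycin, the same genotypes differed far less. NAC103-OX and WT differed there at 3282 genes (16.8%), of which 1654 (8.45%) rose and 1628 (8.32%) fell. The difference between the genotypes was itself different between media at 6176 genes (31.6%) by the interaction test. Of the 1015 large falls on control medium, 274 were also called lower in NAC103-OX on spectinomycin and 55 higher (median -0.21, against -1.71 on control medium), and the interaction was called in the direction of the control-medium fall for 814. The same call was made for 16.4% of all tested genes, but the interaction contains the control-medium difference by which the 1015 were chosen, so nothing is read from that count. Of the 387 large rises, 163 were called higher on spectinomycin and 9 lower (median 0.37, against 1.32 on control medium).

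Several of the genes with large falls on control medium were low in both genotypes on spectinomycin. PER4 averaged 0.622 ± 0.0357 CPM in NAC103-OX and 1.27 ± 0.406 CPM in WT there (SD, n = 3 each), and its difference on control medium exceeded that on spectinomycin by -6.18 log2 units (adjusted p = 9.42e-14). CYP71A12 averaged 2.99 ± 0.607 CPM in NAC103-OX and 4.95 ± 0.0751 CPM in WT (-0.72, adjusted p = 6.00e-05). TCH3 averaged 17.6 ± 0.901 CPM in NAC103-OX and 15.1 ± 0.696 CPM in WT. The levels of these 3 genes in WT on spectinomycin were thus near those of NAC103-OX on control medium. The camalexin and indole list still had 13 falls and 0 rises among 21 on spectinomycin (median -0.47), where 8.32% of all tested genes fell. PSBO2 averaged 49.4 ± 0.828 CPM in NAC103-OX and 40.5 ± 1.64 CPM in WT on spectinomycin, and the photosynthesis list had 1 rise and 15 falls there.

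Of the 15 largest rises 13 were called higher on spectinomycin too, but the interaction was called for 6 of the 15, each with the larger difference on control medium. The 15 were chosen by the control-medium difference, which the interaction contains, so nothing is read from that count of 6 or from its direction. RAB18 had a log2 fold change of 1.75 on spectinomycin and 2.82 on control medium, TSPO 1.75 and 2.98, UMAMIT8 1.01 and 2.52, and CSLB04 0.58 and 2.67. EMB1030 averaged 136 ± 5.38 CPM in NAC103-OX and 9.79 ± 1.51 CPM in WT on spectinomycin (log2 fold change 3.79; interaction adjusted p = 0.468). SRO3 averaged 11.2 ± 1.37 CPM in NAC103-OX and 1.02 ± 0.0517 CPM in WT. ACC2 averaged 104 ± 5.24 CPM in NAC103-OX and 10.8 ± 1.08 CPM in WT, a log2 fold change of 3.26 that was smaller than on control medium by 0.32. Aliphatic glucosinolate genes fell in 9 of 11 cases on spectinomycin (median -1.27). NRT2.6 reversed, at 2.55 ± 0.651 CPM in NAC103-OX and 4.55 ± 0.578 CPM in WT (-0.84), and so did THAS1, at 76.9 ± 2.56 CPM in NAC103-OX and 123 ± 4.08 CPM in WT (-0.68).

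**Figure D4:**
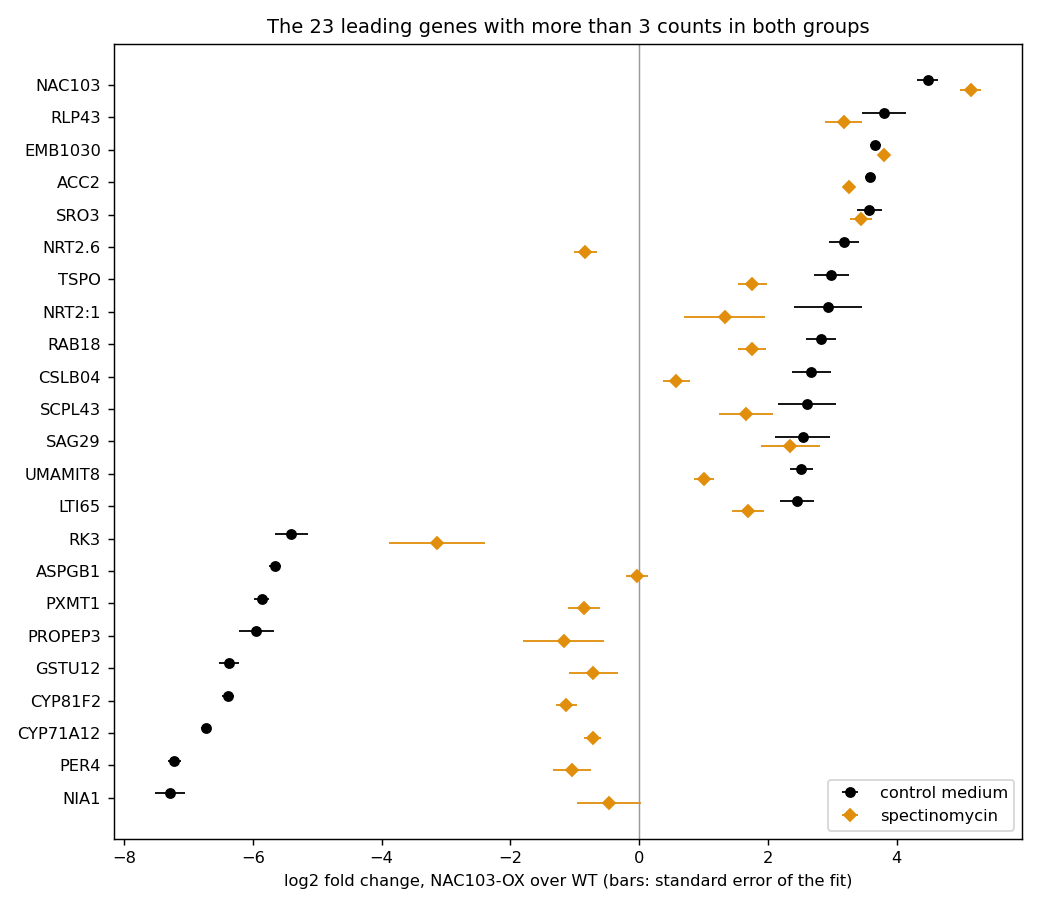
Fitted log2 fold change, NAC103-OX over WT, on control medium (black circles) and on spectinomycin (orange diamonds) for the 23 of the 30 leading genes with more than 3 counts in both control groups. Bars are standard errors of the fit. Most falls shrink on spectinomycin, whereas NAC103, RLP43, EMB1030, ACC2 and SRO3 stay above 3 on both media.

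Against the mutants on control medium, NAC103-OX differed at 11166 genes from nac103-11 (57.1%) and at 10996 genes from gun1-101 (56.2%). These comparisons share the NAC103-OX libraries with the comparison to WT, so their values are given side by side only. PER4 averaged 1.91 CPM in NAC103-OX, 511 ± 15.7 CPM in nac103-11, 1148 ± 28.4 CPM in gun1-101 and 285 CPM in WT. CYP71A12 averaged 5.22 CPM in NAC103-OX, 613 ± 19.6 CPM in nac103-11, 2070.3 ± 68.1 CPM in gun1-101 and 555 CPM in WT. NAC103-OX was thus the lowest of the 4 genotypes and gun1-101 the highest for both genes. All of the 15 largest falls were called lower in NAC103-OX than in nac103-11, as were 27.9% of all tested genes, and lower than in gun1-101, as were 28.2%. The 15 were chosen for low levels in the same NAC103-OX libraries, so nothing is read from these counts.

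EMB1030 averaged 109 CPM in NAC103-OX, 8.55 ± 0.993 CPM in nac103-11, 8.01 ± 0.495 CPM in gun1-101 and 8.57 CPM in WT, and only NAC103-OX stood apart. NRT2.6 gave another order, with 6.32 CPM in NAC103-OX, 29.8 ± 0.520 CPM in nac103-11, 18.2 ± 1.82 CPM in gun1-101 and 0.711 CPM in WT. The aliphatic glucosinolate gene CYP83A1 (AT4G13770), chosen after its values were seen, averaged 1.06 CPM in NAC103-OX, 0.859 ± 0.280 CPM in nac103-11, 3.11 ± 0.389 CPM in gun1-101 and 5.42 CPM in WT. NAC103-OX and nac103-11 were not called different for it (log2 fold change 0.30 ± 0.35, adjusted p = 0.486). The list as a whole had 5 rises and 1 fall in NAC103-OX against nac103-11, where 29.1% of all tested genes rose.

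**Figure D5:**
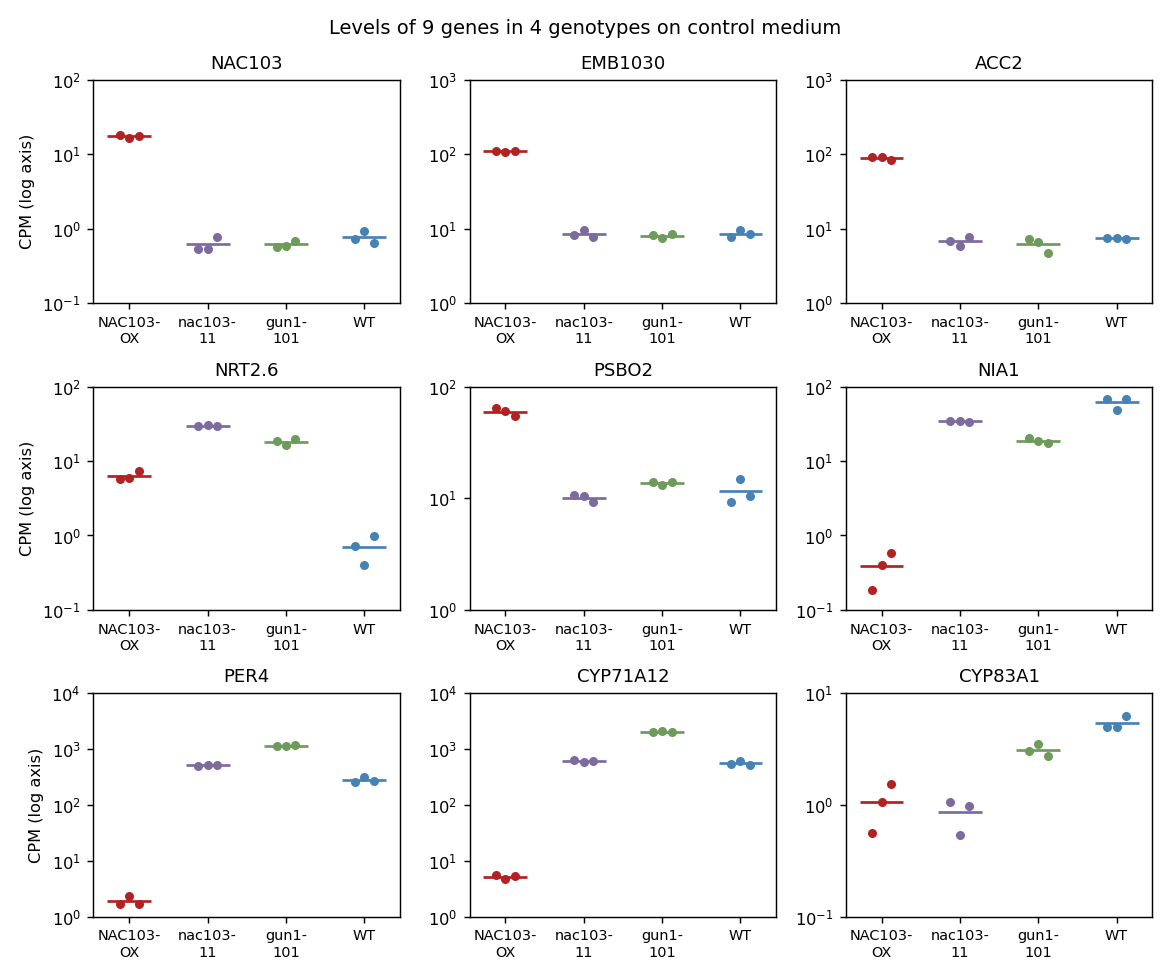
CPM on a log axis for 9 genes in NAC103-OX, nac103-11, gun1-101 and WT on control medium (points are libraries, bars are means of 3). NAC103, EMB1030, ACC2 and PSBO2 are high in NAC103-OX, NIA1, PER4 and CYP71A12 are low in it, and NRT2.6 and CYP83A1 follow other orders.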

How the data were processed

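Poly(A) RNA of 24 libraries, 3 for each of 4 genotypes on 2 media, was analysed. The deposited table holds expected counts per gene, which the authors made with RSEM 1.3.1, per the submitters' processing notes; the aligner, genome build and annotation are not given in the sources used here. Of the values, 98.3% were whole within 1e-06, and all were rounded. Gene IDs of the table matched the RefSeq TAIR10.1 gene table for 24424 of 24497 genes, which gave symbols and promoters. The 19567 genes kept by edgeR's filterByExpr (minimum count 10, minimum total 15) were fitted in edgeR 4.0.16 (R 4.3.3) with TMM scaling, 1 mean per group, a robust quasi-likelihood fit over all 24 libraries, and Benjamini-Hochberg adjustment over all tested genes at 0.05. Every adjusted p in the text is from this fit unless the sentence names DESeq2 1.42.0, another scaling or a left-out library. CPM values use the TMM library sizes. Depth was 13012580 to 17411876 counts per library. The intervals and floors given account for counting error alone. The scripts were tested on simulated counts.

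The gene lists and the comparison itself were chosen with earlier results of these data known. Named genes were NAC103 and GUN1, the 15 called genes that rose most and the 15 that fell most, each with a symbol, at least 1 CPM in either group and no overlap between the groups, and up to 3 called members of each list with the smallest p. ACC1, CYP83A1 and the 2 CYP promoters were chosen after their values were seen, as were the comparisons of spectinomycin with control medium within nac103-11, gun1-101 and NAC103-OX. Alternatives were DESeq2, RLE scaling, no filter, only the groups compared, a replicate block, and each replicate left out; the counts of list members called were recomputed under each, an addition made after the data were seen.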

Additional observations from a re-analysis of the deposited data

Results flagged for a closer look

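The difference between NAC103-OX and WT on control medium was itself different from that on spectinomycin at 6176 genes, by the interaction test of edgeR's quasi-likelihood fit (31.6% of the genes tested). Of the 30 leading genes, 17 were among them. The 30 were chosen by the control-medium difference, which the interaction contains, so nothing is read from that count. The values that follow are the log2 fold change on control medium minus that on spectinomycin. Among the leading rises they were 0.32 for ACC2, 4.02 for NRT2.6, 1.23 for TSPO, 1.07 for RAB18, 2.09 for CSLB04 and 1.51 for UMAMIT8. Among the leading falls they were -6.81 for NIA1, -6.18 for PER4, -6.77 for CCR4, -6.01 for CYP71A12, -5.25 for CYP81F2, -5.66 for GSTU12, -6.02 for GLR2.8, -4.77 for PROPEP3, -5.0 for PXMT1, -6.33 for ABO3 and -5.62 for ASPGB1. CCR4, GLR2.8 and ABO3 had 1, 3 and 2 counts over the NAC103-OX control libraries, so their values are imprecise. A positive value means that NAC103-OX stood higher relative to WT on control medium than on spectinomycin. The comparison on spectinomycin uses other libraries than that on control medium, and the cause of the differences was not tested.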

How the results depend on the processing

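The count of genes called between NAC103-OX and WT on control medium was 8870, and 7267 to 8933 under DESeq2, RLE scaling, no filter, a fit of only the 2 groups, and the replicate block; leaving out 1 replicate gave 7924 to 8950. With the replicate number as a block the count was 8933. Deviations from the group mean correlated at -0.07, -0.04 and 0.06 between same-numbered NAC103-OX and WT libraries, and at -0.09 to 0.12 between differently numbered ones. No pairing by number was seen, which cannot show that there was none. On spectinomycin 3282 genes were called, and DESeq2 gave 1528 rises and 1181 falls. For the interaction, DESeq2 gave 2277 rises and 3133 falls. The 990 genes between media in NAC103-OX fell to 483 to 711 when 1 replicate was left out, with 646 and 524 without control replicates 1 and 2, and 620, 540 and 483 without spectinomycin replicates 1, 2 and 3; each such fit tests a group of 2 against 3, and the cause was not tested otherwise. Of 74 counts of list members called, 10 moved by over 1.5 times without WT replicate 2, 10 in the fit of only the 2 groups, 3 to 8 without another library and 4 each under DESeq2, RLE scaling and no filter. No named gene reversed. EXPA18, SMB and BHLH32 lost their call under some settings. Genes with few counts are limited by depth, and none of these settings separates batch from genotype.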

Other observations

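FWA (AT4G25530), a homeobox gene that DNA methylation keeps silent outside the endosperm in most accessions, had 15 counts over the NAC103-OX libraries and 0 over the WT libraries on control medium, which is at least 5.12-fold higher with a floor of 3 counts over the group. Alpha-expansins, proteins that loosen cell walls, had 2 rises (1 without WT replicate 2) and 1 fall among 10 tested members, with EXPA17 (AT4G01630) higher by 1.46 on the log2 scale. QQS (AT3G30720), a gene whose level is known to vary between lines with its DNA methylation, fell by 1.14 on the log2 scale.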
